A study of Mus musculus with 12 samples.

Results

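Myc, the long non-coding RNA Pvt1 and 7 partners of Myc (Mycn, Max, Mxd1, Mxd4, Mxi1, Mnt and Mga) were followed across 4 mouse lung adenocarcinoma cell lines. The members are every probe set that the array annotation gives to 1 of these 9 gene symbols, which comes to 26 probe sets out of 45037 and to 9 genes out of 18193. Myc and Pvt1 were chosen by their array signal, which is highest in the line KC3, so their KC3 values are given as a description without a test. The 20 probe sets of the 7 partners were not the ground for that choice. The list of members was, however, drawn up with earlier results of these data known.

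The study compared lines labelled highly metastatic (KC1, KC2 and KC3) with a line labelled poorly metastatic (KC4), with 3 arrays per line that the labels call biological replicates. All 12 samples have the genotype K-rasLA1/+; Cdkn1a-/- on a background given as 127s. By this label every line carries the LA1 allele of K-ras and lacks p21, an inhibitor of the cell cycle. Cells were isolated from primary lung tumours of KC mice (6 tumours from 4 animals, not assigned to the lines) and grown in RPMI 1640 with 10% FBS. KC4 is 1 line, so its class and its other properties as a line cannot be told apart. The labels do not say that replicate arrays came from separate cultures, and the p-values then measure only the spread between these arrays.

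Myc is a transcription factor that binds DNA only as a pair with Max, at a short palindrome called the E-box, and is known for driving ribosome production, metabolism and cell cycle entry downstream of Ras. Mxd1, Mxd4, Mxi1, Mnt and Mga also pair with Max and occupy the same motif, where they recruit repressors, while Mycn is a paralogue of Myc. Pvt1 lies beside Myc on the chromosome and is commonly co-amplified with it in tumours.

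The E-box letters CACGTG, which read the same on both strands, were searched in RefSeq promoter windows of 300 bases (250 before to 50 after the annotated start, build GRCm38.p6). They occurred in 2349 of all 32851 windows, or 7.15%. Windows were present for 7 of the 9 members (9 windows), and those of 3 genes held the motif, Max, Mnt and Mxd4; Myc and Pvt1 had no window in that table. These stretches are shown because they carry the motif that Myc and its partners bind. The motif is in capitals with 20 bases on each side, 5′ to 3′ on the gene's own strand. Its first base lay at -3 from the start of Max (chr12:76962226-76962271, minus strand), at -123 from that of Mnt (chr11:74830781-74830826, plus strand) and at -219 from that of Mxd4 (chr5:34187904-34187949, minus strand).
Max: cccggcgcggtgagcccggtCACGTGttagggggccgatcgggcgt
Mnt: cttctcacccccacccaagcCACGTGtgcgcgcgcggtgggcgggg
Mxd4: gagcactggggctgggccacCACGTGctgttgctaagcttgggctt
The whole Max window (chr12:76962199-76962498, minus strand) is given because Max was the partner that set KC3 apart.
Max promoter: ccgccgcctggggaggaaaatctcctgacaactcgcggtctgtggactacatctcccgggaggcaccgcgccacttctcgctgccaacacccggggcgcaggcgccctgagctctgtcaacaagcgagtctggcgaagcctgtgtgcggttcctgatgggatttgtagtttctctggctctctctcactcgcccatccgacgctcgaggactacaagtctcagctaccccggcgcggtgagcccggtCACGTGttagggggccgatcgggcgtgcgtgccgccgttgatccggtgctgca
A match describes these letters and says nothing of whether Myc was bound there.

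Signals are linear array intensities, and log2 values were taken after setting signals under 16 to 16, so that the lowest log2 value is 4. The median signal per array ran from 94.5 to 128, with 2 of the KC3 arrays lowest. Epithelial markers were bright in every line (Epcam from 12.63 to 13.74 and Cdh1 from 13.43 to 13.91 on the log2 scale). The summed signal of 5 epithelial markers ran from 57393 to 79708 over the arrays, against at most 649 for 6 fibroblast markers, 618 for 5 leukocyte markers and 524 for 4 endothelial markers. Of 5 lung markers, Sftpb was at 7.58 to 8.15 and Sftpc at 6.63 to 6.86 in the line means, off the floor on every array, while Nkx2-1 was at 4.18 to 5.41, Scgb1a1 at 4.37 to 5.01 and Napsa at the floor on all 12 arrays. The 5′ control probe set for 18S ribosomal RNA read 2706 to 4383 on the KC4 arrays and 369 to 679 on the other 9, and its part in the KC4 differences below was not tested.

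Myc was bright in every line and highest in KC3. Its 1 probe set (1424942_a_at) read 14751, 14766 and 14772 on the KC3 arrays, against 4272, 4168 and 4171 for KC1, 4563, 5370 and 4967 for KC2, and 3403, 2998 and 3253 for KC4. The lines ranked KC4, KC1, KC2 and KC3 from low to high, and no array of one line overlapped those of another. On the log2 scale the means were 11.65 ± 0.09, 12.04 ± 0.02, 12.27 ± 0.12 and 13.85 ± 0.00 (SD, n = 3) in that order. KC3 lay 1.81 above KC1, 1.57 above KC2 and 2.20 above KC4, or 1.86 above the mean of the other lines, which is 3.64-fold.

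Among the other lines, Myc differed by less. KC2 exceeded KC4 by 0.63 (SE 0.061, limma adjusted p = 6.97e-05), KC1 exceeded KC4 by 0.39 (limma adjusted p = 0.00217), and KC1 was 0.24 below KC2 (log2 difference -0.24, limma adjusted p = 0.0267). All 3 differences were larger than the spread between arrays but under the minimum of 1 on the log2 scale that a call also required. The KC3 arrays agreed closely for Myc: their SD was 0.0731% of the mean, whereas the median over the 405 probe sets with a KC3 mean of 10000 to 20000 was 3.63%, and 0 of these had a smaller value. The fit pooled the spread of all lines, so this small KC3 spread lowered the SE behind the p-values above. Whether this probe set was saturated on the KC3 arrays was not tested. In RNA from a whole culture, more transcript per cell and more cells with the transcript cannot be told apart.

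**Figure D1:**
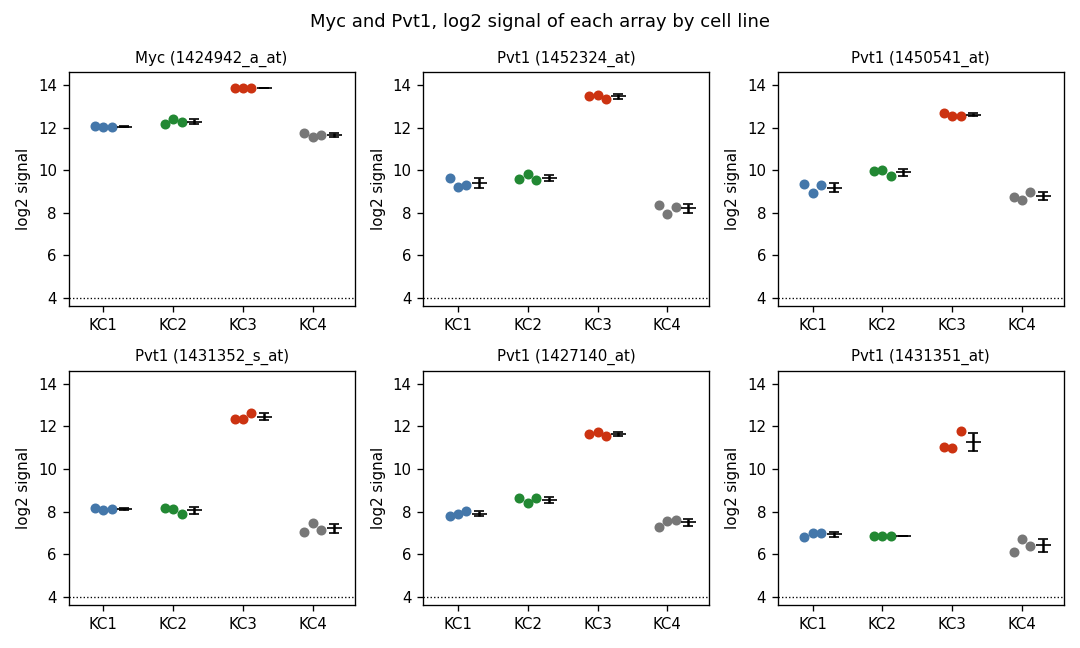
Log2 signal of the Myc probe set and the 5 Pvt1 probe sets on each of the 12 arrays (vertical axis, log2 signal; horizontal axis, cell line), with mean and SD of 3 arrays per line as black bars and the floor at 4 as a dotted line. KC3 is highest in each panel, at 13.85 for Myc and between 11.27 and 13.47 for Pvt1, and KC4 is lowest.

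Pvt1 was also highest in KC3, by a wider margin. The probe set 1452324_at read 11691, 11929 and 10464 for KC3, 804, 599 and 632 for KC1, 763, 897 and 735 for KC2, and 335, 246 and 311 for KC4. KC1 and KC2 overlapped, KC4 lay below both, and the KC3 arrays were far above all others. On the log2 scale KC3 exceeded KC1 by 4.08, KC2 by 3.83 and KC4 by 5.27. Over the 5 probe sets, KC3 lay between 3.32 (1450541_at) and 4.66 (1431352_s_at) above the mean of the other lines, or 9.99-fold to 25.3-fold.

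The other Pvt1 probe sets gave the same top line and the same lowest line. For 1450541_at the signals were 6564, 6088 and 6041 for KC3, 645, 489 and 624 for KC1, 1006, 1025 and 841 for KC2, and 422, 391 and 502 for KC4. KC1 and KC4 overlapped in that probe set, and KC2 was above both. The s_at probe set 1431352_s_at, a kind that can pick up related transcripts, read 5269, 5291 and 6421 for KC3 and from 133 to 289 on the other 9 arrays. For 1427140_at the KC3 arrays read 3247, 3471 and 3018 and the others 157 to 400, with no overlap between any of the lines. The dimmest, 1431351_at, read 2091, 2060 and 3530 for KC3, so that 1 KC3 array stood above the others, and 69.4 to 127 elsewhere.

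KC3 aside, Pvt1 was lower in KC4 than in KC2. The difference between KC2 and KC4 was called for 3 of the 5 probe sets, at 1.43 (1452324_at, limma adjusted p = 9.2e-05), 1.13 (1450541_at, limma adjusted p = 0.0002) and 1.06 (1427140_at, limma adjusted p = 7.89e-05). The last was lost without KC4 replicate 1, where it was 0.96. KC1 exceeded KC4 by 1.19 in 1452324_at (limma adjusted p = 0.000523), the only Pvt1 probe set called in that pair. Between KC1 and KC2 no Pvt1 probe set was called, although KC2 was higher by 0.71 in 1450541_at (log2 difference of KC1 minus KC2 -0.71, limma adjusted p = 0.00516) and 0.65 in 1427140_at (-0.65, limma adjusted p = 0.00264).

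Myc and Pvt1 were not tested in the KC3 pairs. Among the 7 partners, which were tested, only Max, the obligate partner of Myc, set KC3 apart (as higher, beside 0.841% of all genes). Its 1 probe set (1423501_at) read 2969, 2908 and 2174 for KC3, 861, 777 and 802 for KC1, 801, 1098 and 852 for KC2, and 979, 834 and 943 for KC4. The KC3 arrays lay above all 9 others, which overlapped one another. On the log2 scale KC3 (11.38 ± 0.25, SD, n = 3) exceeded KC1 by 1.71 (SE 0.148, limma adjusted p = 4.03e-05), KC2 by 1.55 (limma adjusted p = 5.21e-05) and KC4 by 1.54 (limma adjusted p = 7.96e-05), close to a 3-fold difference each (3.27, 2.93 and 2.90). KC1, KC2 and KC4, at 9.67, 9.83 and 9.84, were not called against one another.

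Over the 20 partner probe sets, 3 were called between KC3 and KC1 (1 higher, 2 lower) where 7.00% of all probe sets were called (2.21% higher, 4.78% lower). Between KC3 and KC2, 2 were called (1 in each direction; 9.42% of all, 3.97% higher and 5.44% lower), and between KC3 and KC4, 6 were called, all higher in KC3 (6.70% of all, 2.74% higher). Max accounted for 1 of the higher calls in each pair. The remaining calls came from Mxd1, Mxd4 and Mxi1, whose lines were ordered differently.

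Mxd1, a Max partner known to oppose Myc and to rise in differentiating cells, stood in steps, highest in KC1 and lowest in KC4. The probe set 1434830_at read 819, 899 and 863 for KC1, 428, 406 and 503 for KC2, 325, 345 and 278 for KC3, and 110, 136 and 165 for KC4, with no overlap between any lines. Relative to KC4, KC1 was higher by 2.67 on the log2 scale (6.36-fold, limma adjusted p = 4.53e-06), KC2 by 1.72 (limma adjusted p = 3.27e-05) and KC3 by 1.22 (limma adjusted p = 0.000329). KC1 lay 0.95 above KC2 (limma adjusted p = 0.00208), just under the minimum. KC3 was below KC1 by 1.45 (-1.45, limma adjusted p = 0.000111), which was called, and below KC2 by 0.50 (-0.50, limma adjusted p = 0.0338), which was under the minimum.

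The second Mxd1 probe set (1455104_at) kept this order, with 360, 310 and 451 for KC1, 271, 226 and 221 for KC2, 156, 224 and 202 for KC3, and 77.6, 69.3 and 25 for KC4. KC2 and KC3 overlapped, and each of the highly metastatic lines was called against KC4, at 2.85, 2.22 and 1.91 for KC1, KC2 and KC3 (limma adjusted p = 0.000931, 0.00231 and 0.00622). The third (1422002_at) was dim: it read 29.5, 68.8 and 98.5 for KC1 and at most 16.7 in the other lines, where 8 of 9 arrays were at the floor. Its calls for KC1 (1.85 above KC2, limma adjusted p = 0.00596, and 1.87 above KC3 and KC4) are therefore differences from the floor, and fell to 0.24 with a floor of 64.

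Mxi1, also called Mxd2 and a repressor of the same family, was lowest in KC4 in both of its probe sets. The brighter one (1450376_at) read 1667, 1814 and 1697 for KC1, 2633, 2432 and 2473 for KC2, 1987, 1869 and 2200 for KC3, and 879, 814 and 773 for KC4. No lines overlapped, and KC2 was highest. The excess over KC4 was 1.07 in KC1 (limma adjusted p = 1.22e-05), 1.61 in KC2 (limma adjusted p = 5.37e-07) and 1.29 in KC3 (limma adjusted p = 2.5e-06). The other (1425732_a_at) read 651, 546 and 561 for KC1, 551, 878 and 548 for KC2, 545, 665 and 642 for KC3, and 343, 172 and 208 for KC4. Here the 3 highly metastatic lines overlapped one another and KC4 lay below them, by 1.34, 1.48 and 1.41 (limma adjusted p = 0.00738, 0.0027 and 0.00404).

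Mxd4, another Max-binding repressor, differed between lines in 1 of its 4 probe sets. The probe set 1434378_a_at read 38.9, 38.5 and 60.6 for KC1, 204, 197 and 161 for KC2, 63.6, 69.4 and 53.9 for KC3, and 16.8, 22.2 and 21.8 for KC4. KC2 was highest and KC4, close to the floor of 16, was lowest, while KC1 and KC3 overlapped. The log2 difference of KC1 from KC2 was -2.05 (limma adjusted p = 0.000144) and that of KC3 from KC2 was -1.59 (limma adjusted p = 0.000286), while KC2 exceeded KC4 by 3.22 (limma adjusted p = 4.29e-06). The smaller excess of KC1 over KC4, 1.16 (limma adjusted p = 0.00348), was lost without KC1 replicate 3, where it was 0.95. The other 3 Mxd4 probe sets were called in no pair: 1422575_at ranged from 79.3 to 204 and 1422574_at from 32.4 to 108, with overlapping lines, and 1434379_at was at the floor on 10 of 12 arrays.

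**Figure D2:**
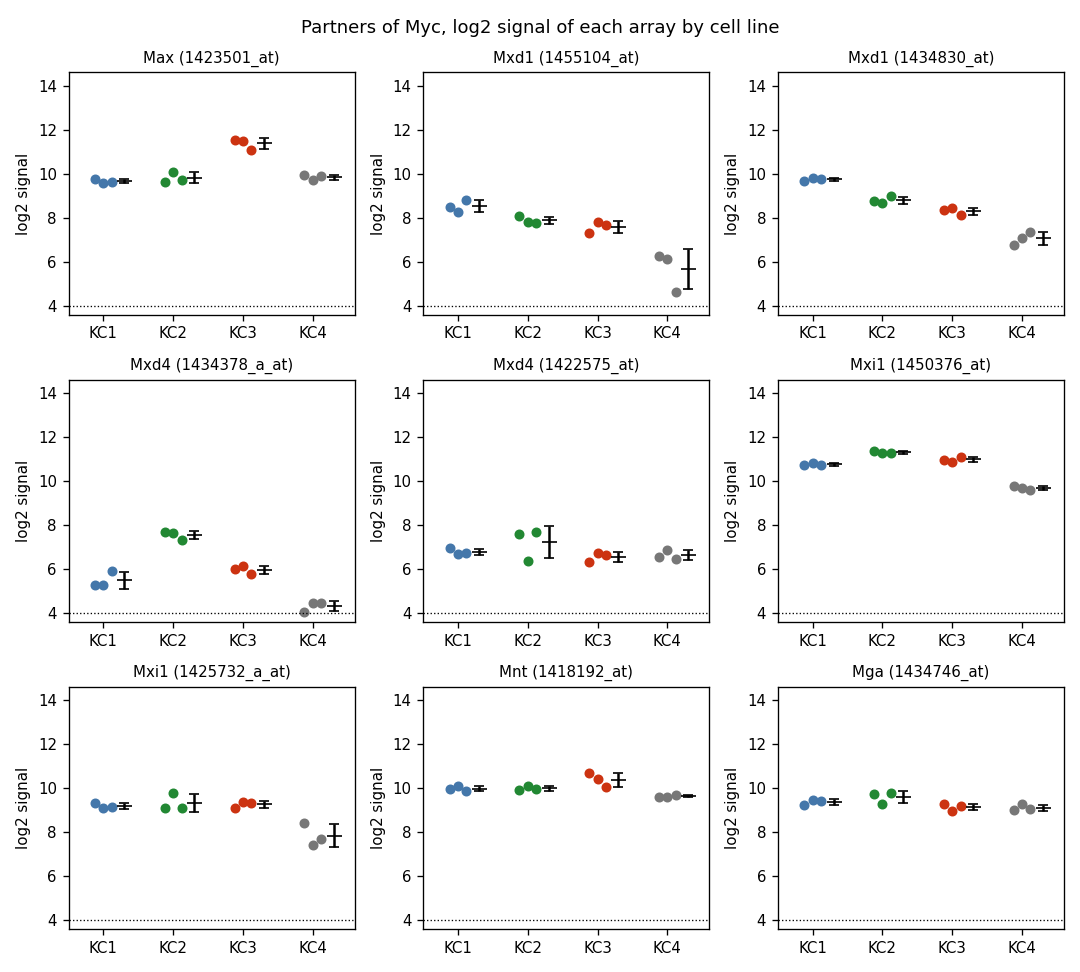
Log2 signal of 9 partner probe sets on each of the 12 arrays (vertical axis, log2 signal; horizontal axis, cell line), with mean and SD of 3 arrays per line as black bars and the floor at 4 as a dotted line. Max is highest in KC3 at 11.38, Mxd1 steps down from 9.75 in KC1 to 7.08 in KC4 (1434830_at), and both Mxi1 probe sets are lowest in KC4.

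Mnt, a broadly expressed partner of Max, varied little. Its bright probe set (1418192_at) read 982, 1094 and 948 for KC1, 970, 1095 and 983 for KC2, 1624, 1384 and 1051 for KC3, and 786, 776 and 829 for KC4. KC4 lay below the other 9 arrays, which overlapped. KC3 exceeded KC4 by 0.74 (limma adjusted p = 0.00401), under the minimum for a call, and its excess over KC1, 0.40, did not pass the test (limma adjusted p = 0.0669). The second Mnt probe set (1418193_at) was at the floor on 6 of 12 arrays.

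Mga, a large protein that pairs with Max within a Polycomb complex, was called in no pair. Its brightest probe set (1434746_at) ranged from 502 to 869 over the 12 arrays, with log2 means of 9.37, 9.59, 9.15 and 9.12 for KC1 to KC4. KC2 was higher than KC4 by 0.48 (limma adjusted p = 0.0386) and higher than KC3 by 0.45 (-0.45 for KC3 minus KC2, limma adjusted p = 0.046). Of its other 4 probe sets, 1 was at the floor on all arrays.

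Mycn, the paralogue of Myc best known from neural tissue, was dim and not called in any pair. Its 3 probe sets read 62.0 to 304 (1425923_at), 30.0 to 116 (1417155_at) and 31.3 to 107 (1425922_a_at). In 1417155_at KC3 lay below KC4 by 1.31 and below KC1 by 1.15 (log2 differences -1.31 and -1.15), which did not pass the test (limma adjusted p = 0.0561 and 0.0905).

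Between the other lines, calls were tested over all 26 member probe sets. Between KC1 and KC2, 2 were called, 1 of Mxd1 and 1 of Mxd4, where 4.04% of all probe sets were called. Between KC1 and KC4, 7 were called, all higher in KC1 (4.75% of all, 3.09% higher), and between KC2 and KC4, 8 were called, all higher in KC2 (7.99% of all, 4.26% higher). The genes called against KC4 were Mxd1, Mxd4, Mxi1 and Pvt1 in both pairs. These 2 comparisons share the KC4 arrays.

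The contrast the study was built on sets KC4 against the average of the other lines. Of the 20 partner probe sets, 5 were called, all higher in the highly metastatic lines, where 4.59% of all probe sets were called and 2.49% were called higher. They were 2 of Mxd1, at 1.87 (1434830_at, limma adjusted p = 7.49e-06) and 2.32 (1455104_at, limma adjusted p = 0.000655), 2 of Mxi1, at 1.33 (1450376_at, limma adjusted p = 7.03e-07) and 1.41 (1425732_a_at, limma adjusted p = 0.00134), and 1 of Mxd4, at 2.00 (1434378_a_at, limma adjusted p = 3.01e-05). Max (0.45, limma adjusted p = 0.0258) and Mnt (0.48, limma adjusted p = 0.0146) were higher by less than the minimum. Myc, chosen for its KC3 value, was 1.07 higher, and its Pvt1 neighbour between 1.79 and 2.63, given without a test. With the line taken as a random block, 2 of the 5 calls remained (limma adjusted p = 0.0477 for 1434830_at and 0.00232 for 1450376_at). The other 3 were lost (limma adjusted p = 0.0681 for 1455104_at, 0.076 for 1425732_a_at and 0.15 for 1434378_a_at). As KC4 is 1 line, this fit cannot measure the spread between poorly metastatic lines. The 2 remaining calls therefore do not separate the class from the line KC4.

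Genes that Myc is known to activate or repress were then described from lists, 1 probe set per gene, beside all 18193 genes. Ribosome biogenesis genes were higher in KC3 as a group. All 28 were above KC1 and KC2 and 26 were above KC4, and 26 had their highest line mean in KC3, a position held by 24.1% of all genes. Their median difference was 0.62 from KC1, 0.60 from KC2 and 0.38 from KC4, where the median of all genes was 0.00, -0.05 and -0.02. The differences were modest: 6, 6 and 1 of the 28 were called higher in KC3 than in KC1, KC2 and KC4 (2.89%, 4.94% and 3.52% of all genes), and 0 in all 3 pairs by limma (0.841% of all genes). At an adjusted p under 0.05 with no minimum difference, 15 of 28 were higher in KC3 than in each other line (8.29% of all genes), and 17 at an unadjusted p under 0.05. With each array centred on its median, a scaling that puts the median of all genes 0.10 higher in KC3 than in the mean of the other lines, the list's median rose from 0.55 to 0.76.

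Wdr12, a subunit of the PeBoW complex that processes the large ribosomal subunit, was called against both KC1 (1.30, limma adjusted p = 1.42e-06) and KC4 (1.19, limma adjusted p = 2.42e-06), and lay 0.92 above KC2. Rrp12, which serves in ribosomal subunit export, was 1.55 above KC1 (limma adjusted p = 7.99e-06) and 1.49 above KC2 (limma adjusted p = 6.72e-06). Rrp9, a protein of the U3 nucleolar particle, was at 9.02, 8.68, 10.46 and 10.01 for KC1 to KC4, and Nob1, the nuclease that matures 18S ribosomal RNA, at 9.12, 8.65, 10.32 and 10.11. In both, KC4 was nearer to KC3 than to the other lines. Ncl and Npm1, the abundant nucleolar proteins, differed by at most 0.36 between KC3 and any other line, and Nop16 and Ebna1bp2 were highest in KC4. E-box letters occurred in 6 of the 25 promoter windows of this list (24%), in 12 of 40 for the growth and cell cycle list described next (30%), in 1 of 11 for the repressed genes (9.09%), in 1 of 27 for the regulators (3.70%) and in 2 of 6 for the wider network (33.3%), beside 7.15% of all windows.

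**Figure D3:**
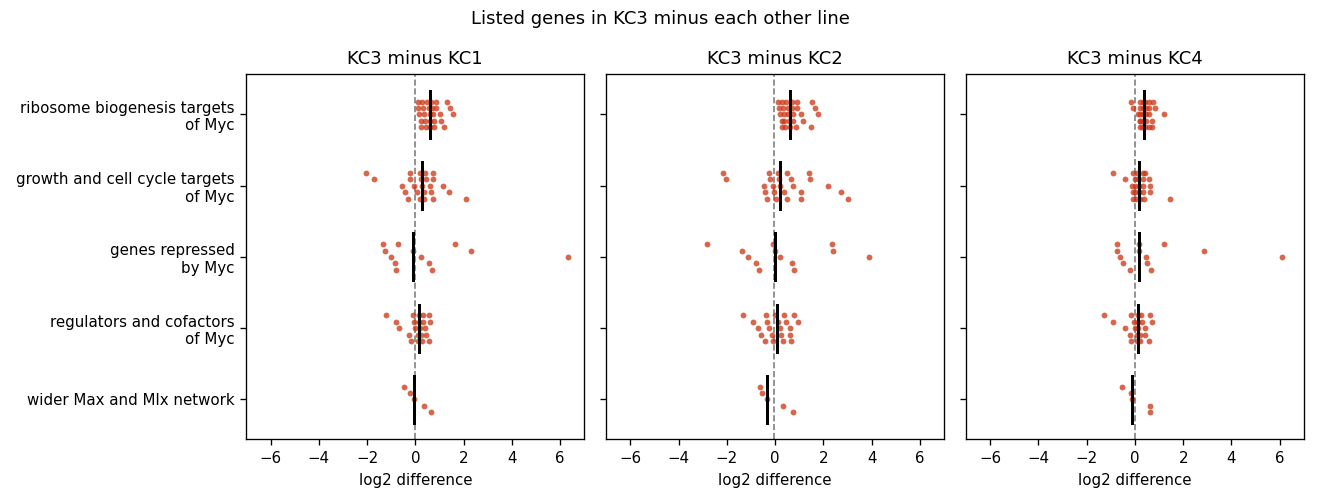
Log2 difference of KC3 minus each other line (horizontal axis, 1 panel per line) for every measured gene of 5 lists (vertical axis), 1 point per gene, with the list's median as a black bar and the median of all genes as a dashed grey line. The ribosome biogenesis medians are 0.62, 0.60 and 0.38, where those of all genes are 0.00, -0.05 and -0.02, and the repressed genes spread to both sides.

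Growth and cell cycle targets of Myc were mixed. Of 25 measured genes (30 listed), 13 were highest in KC3 and 5 lowest (24.1% and 29.4% of all genes), and the medians of KC3 minus KC1, KC2 and KC4 were 0.27, 0.20 and 0.15. Ccnd2, which encodes cyclin D2 and drives entry into the cell cycle, was the only one that set KC3 apart as higher (1 of 25, beside 0.841% of all genes). It was at 9.67 ± 0.11 in KC3 against 7.55 ± 0.04, 6.96 ± 0.27 and 8.22 ± 0.07 (SD, n = 3) in KC1, KC2 and KC4, and all 7 of its probe sets were highest in KC3. Tfrc, the transferrin receptor that takes up iron, went the other way, at 13.54 in KC1, 13.66 in KC2, 11.50 in KC3 and 12.42 for KC4, so that KC3 was called lower than KC1 (-2.03, limma adjusted p = 7.94e-08) and KC2 (-2.15, limma adjusted p = 4.01e-08). Odc1, the first enzyme of polyamine synthesis and a classic target, was 0.40, 0.50 and 0.34 higher in KC3 than in KC1, KC2 and KC4.

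In the same list Mthfd2, a mitochondrial folate enzyme, read 11.52, 9.23, 12.25 and 12.40 for KC1 to KC4, and KC2 was called below each other line (for KC3 by 3.02, limma adjusted p = 8.83e-08). Slc7a5, a carrier of large neutral amino acids, was at 11.89, 11.08, 13.27 and 13.35, and its difference between KC1 and KC2, 0.81, was under the minimum. In the contrast of class, Tert, the catalytic subunit of telomerase, was called higher (1.85, limma adjusted p = 0.0207; 2.87% of all genes), although its KC3 level (5.29 ± 1.21, SD, n = 3) was nearer to KC4 than to KC1 and KC2, and the call was lost without KC4 replicate 1 or 3. Slc7a5 (-1.27, limma adjusted p = 3.39e-07) and Mthfd2 (-1.39, limma adjusted p = 3.89e-06) had lower values there and passed the test (2.57% of all genes). In both, however, KC3 was close to KC4 (KC3 minus KC4 -0.08 and -0.14, limma adjusted p = 0.405 and 0.392). With the line as a random block, which estimates the correlation within lines, these 3 class calls were lost (limma adjusted p = 0.665 for Tert, 0.38 for Slc7a5 and 0.606 for Mthfd2).

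Genes reported to be repressed by Myc did not move together in KC3. Of 13 measured, 5 were highest and 4 lowest there, and the sign of their median against the mean of the other lines depended on scaling, at -0.12 as deposited, 0.11 after quantile normalization and 0.09 after median centring. Txnip, an inhibitor of thioredoxin and glucose uptake, set KC3 apart as higher, at 12.72 ± 0.12 against 10.41 ± 0.14, 10.31 ± 0.02 and 9.86 ± 0.16 (SD, n = 3) in KC1, KC2 and KC4, and its second probe set was also highest in KC3. The cell cycle inhibitors Cdkn1b and Cdkn1c were lowest in KC3: Cdkn1c was called below KC1 (-1.32, limma adjusted p = 6.7e-07) and KC2 (-1.13, limma adjusted p = 1.16e-06), while Cdkn1b lay 0.67 to 0.99 below each line (-0.99 for KC1, -0.67 for KC2 and -0.73 for KC4). Cdkn2b, another inhibitor, was at 10.51 in KC2 and 10.50 for KC3 but at 4.19 in KC1 and 4.41 for KC4, near the floor.

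Other genes of the repressed list differed in which line was lowest. Gadd45a, which answers DNA damage, was at 9.88, 7.66, 11.54 and 10.88 for KC1 to KC4, and Ddit3, a factor of the unfolded protein response, at 9.87, 8.18, 10.54 and 9.33, both lowest in KC2, whereas Gadd45b, a relative of Gadd45a, was lowest in KC1, at 10.74, 11.11, 11.31 and 10.83. Ndrg2, a gene of the Myc-repressed Ndrg family, was highest in KC2, at 7.79, 9.36, 6.53 and 7.14. In the contrast of class, Cdkn2b (3.99, limma adjusted p = 3.24e-07) and Txnip (1.29, limma adjusted p = 2.8e-06) were called higher and Gadd45a (-1.19, limma adjusted p = 3.79e-06) lower. None of these was alike in the 3 highly metastatic lines, and Gadd45a was 0.66 higher in KC3 than in KC4 (limma adjusted p = 0.000481). With the line as a random block these calls were lost too (limma adjusted p = 0.418 for Cdkn2b, 0.551 for Txnip and 0.855 for Gadd45a).

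Factors that act on Myc or with it mostly differed by less than the minimum. Of 22 measured (24 listed), Skp2 was the only one that set a line apart. Skp2, a ubiquitin ligase subunit that targets Myc and p27, was at 8.17 ± 0.03 in KC3 against 9.39 ± 0.07, 9.48 ± 0.14 and 9.46 ± 0.15 (SD, n = 3) in KC1, KC2 and KC4 (limma adjusted p = 8.4e-06, 3.56e-06 and 5.81e-06), beside 1.54% of all genes set apart as lower. All 6 Skp2 probe sets were lowest in KC3, but with their mean the differences were -0.82, -0.89 and -0.95 and no longer called. Cip2a, which shields Myc from dephosphorylation, was 0.82 to 0.93 lower in KC3 (log2 differences -0.82, -0.93 and -0.91), and Usp36, a deubiquitinase of Myc, was 0.55, 0.77 and 0.64 higher. Kat2a, an acetyltransferase recruited by Myc, was at 8.91 in KC2 against 9.85 to 9.89 in the others.

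In the wider network around Max and Mlx, 0 of 5 genes were called between any pair of lines by limma. KC3 was nevertheless above each line for Mlxip, the glucose-responsive partner of Mlx known as MondoA (9.10 ± 0.13 against 8.46, 8.35 and 8.46), and below each line for Mxd3 (7.27 ± 0.17 against 7.74, 7.90 and 7.79; SD, n = 3), both at limma adjusted p-values under 0.05. At an unadjusted p under 0.05 in all 3 KC3 pairs the counts were the same, 1 higher and 1 lower. Mycl, the third Myc paralogue, was dim, at 5.65 to 6.27.

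None of the genes nearest to Myc and Pvt1 on the chromosome had as wide a margin in KC3. Among the 6 genes with a probe set on each side, KC3 minus the mean of the other lines ran from -0.64 for Nsmce2 to 1.12 for Macroh2a3, with a median of -0.06. Several, such as Gsdmc2, were at or near the floor, where a difference could not be seen. At an adjusted p under 0.05 with no minimum difference, 2 of the 12 were higher in KC3 than in each other line (8.29% of all genes) and 1 was lower. Lratd2, the nearest protein-coding gene with a clear signal on the Myc side, was at 9.93, 10.13, 10.94 and 10.31 for KC1 to KC4. It was highest in KC3 and called against KC1 (1.01, limma adjusted p = 7.68e-06), a value at the edge of the minimum that fell to 0.97 after quantile normalization. Its excess over KC2 and KC4 was 0.81 and 0.63 (limma adjusted p = 2.14e-05 and 0.000136), under the minimum. Macroh2a3, a transcribed pseudogene that lies within the annotated span of Pvt1, was dim, with 5.58, 5.76, 6.71 and 5.43, and KC3 was called higher than KC1 (1.13, limma adjusted p = 0.00684) and KC4 (1.28, limma adjusted p = 0.00343). Against KC2 its excess in KC3 was 0.95 (limma adjusted p = 0.0146), under the minimum. Its second probe set, an x_at set open to related transcripts, had KC1 highest at 6.48.

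Trib1, a pseudokinase farther out on the Myc side, was at 7.98, 8.20 and 8.41 for KC1, KC2 and KC3 and at 6.83 ± 0.72 (SD, n = 3) in KC4, and was called lower in KC4 than in each other line. Its class difference, 1.37 (limma adjusted p = 0.0028), fell to 0.96 without KC4 replicate 3 and lost its call when arrays of a line were treated as a random block (limma adjusted p = 0.265), and its second probe set was not lowest in KC4. Nsmce2 and Washc5 were both highest in KC2, at 10.33 and 11.80. On the Pvt1 side the first 6 genes, Macroh2a3 among them, were dim, from the floor to 7.71. Past them, chosen after their values were seen, Cyrib was bright and varied from 12.97 to 13.23, and Asap1, a regulator of the actin cytoskeleton, was lowest in KC3 at 9.51 and highest in KC2 at 10.64.

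**Figure D4:**
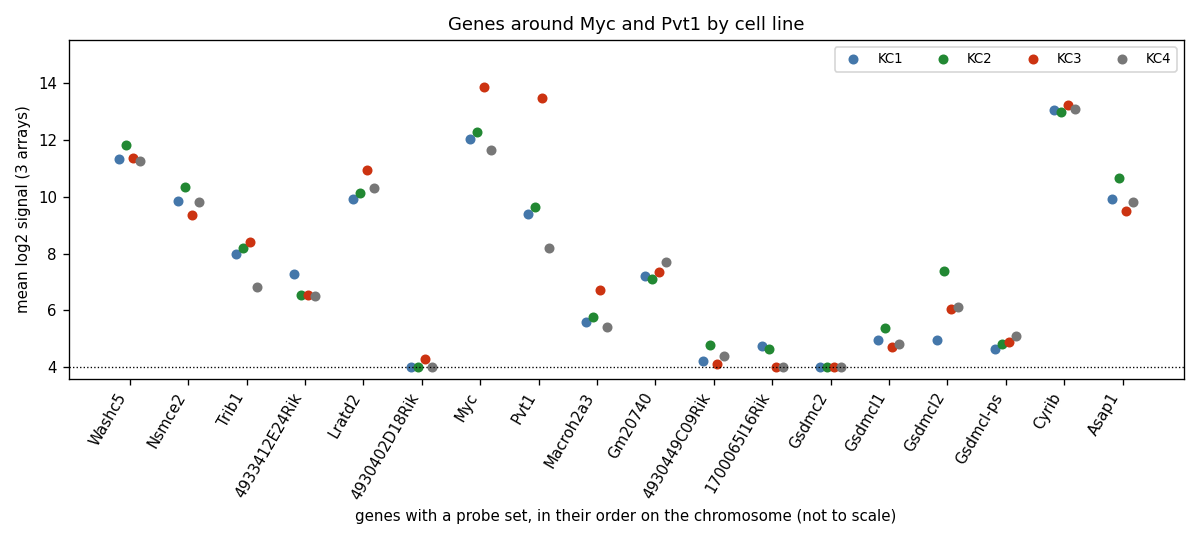
Mean log2 signal of 3 arrays (vertical axis) for Myc, Pvt1 (1452324_at) and the genes around them with a probe set, in chromosomal order and not to scale (horizontal axis), 1 point per cell line, with the floor at 4 as a dotted line. KC3 stands 1.86 above the mean of the other lines for Myc and 4.39 for Pvt1. It stands between -0.64 and 1.12 for the 12 genes with a probe set nearest to them, some of which lie at the floor.

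The genes whose 4 line means most resembled those of Myc were found by the root mean square difference of line means centred on each gene's own mean, over 4 lines and 9559 genes whose highest line mean was at least 8. They were Zdhhc23 (0.084), Stk32c (0.099), Snhg17 (0.107) and Ppm1j (0.161). Snhg17, a host gene of small nucleolar RNAs, was the brightest of them, at 8.87, 9.02, 10.79 and 8.67 for KC1 to KC4. Those nearest to Pvt1 (1452324_at) were Tnik (0.411), Gnmt (0.437), Arrdc4 (0.577) and Nkd2 (0.644), with KC3 at 9.57, 8.28, 10.53 and 9.07. All of these genes except Snhg17 reached 8 only in KC3, so the filter admitted them through that line, and Gnmt was at the floor on every KC4 array. As Myc and Pvt1 were chosen for being highest in KC3, genes like them are high there by construction. With 4 lines such a match rests on few values, and the genes are given as a description.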

How the data were processed

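Total RNA of the 12 samples was hybridised to one-colour Affymetrix 3′ arrays with a biotin label, per the labels' protocols. The deposited table gives 1 linear intensity per probe set and array, with no gene centring. The summary software, background correction, scaling and genome build are not given in the sources used here. Scaling of each array to the same trimmed mean was inferred from the values. With such scaling, a change in total RNA per cell would not be seen.

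Of 45101 probe sets, 64 controls were left out. The platform annotation gave 34945 probe sets 1 symbol, 932 several and 9160 none listed; 34741 matched a RefSeq gene identifier (GRCm38.p6), which changed 0 symbols and otherwise served only for gene order and promoters. Signals were floored at 16 and taken to log2. On each array 15.3% to 20.0% of probe sets lay at or under the floor, and 3 arrays per line limit the precision.

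The lines were compared by linear models in limma (version 3.58.1, R version 4.3.3; functions lmFit and eBayes) that took all 12 arrays together, with Benjamini-Hochberg adjustment over all 45037 probe sets for the members and over 18193 genes (the brightest probe set of each) for the lists. A call required an adjusted p under 0.05 and an absolute log2 difference of at least 1. A gene set a line apart when called against the other 3 in 1 direction. The fit was tested on simulated data. Tables and figures were made with Python 3.11.15, pandas 2.3.3, numpy 2.4.6 and matplotlib 3.10.9.

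Named genes were all member probe sets, up to 4 genes per list that set a line apart (otherwise the 2 with the widest range), 6 genes with a probe set on each side of Myc and Pvt1, and the 4 genes most like each. Other genes are named as members of a counted group and were picked after their values were seen. The members and lists were chosen with earlier results of these data known. No 2 arrays held identical values. Same-numbered replicates of different lines did not deviate together (correlations from -0.13 to 0.10, median 0.0061, 1 of 18 over 0.1). Alternatives covered the floor, the scaling, a filter on dim probe sets, the choice of probe set, the prior, the minimum difference, the replicate number or the line as a block, and each array left out in turn.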

Additional observations from a re-analysis of the deposited data

How the results depend on the processing

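The number of arrays (3 per line) and, for dim probe sets, the floor limit these results. Over 27 counts, 551 of 605 alternatives stayed within 1.5 times the reported count; over 90 single values, 1684 of 1768 kept their direction and call, 57 lost the call, 27 list medians or untested values moved by more than the spread between arrays, and 0 called values reversed. For KC1 and KC2, 2 calls among the members became 1 with a floor of 64 or a minimum difference of 2, 0 without the dimmer 50% or with 1 probe set per gene, and 7 with no minimum. With 1 probe set per gene the member or partner calls fell to 3 for KC1 and KC4 (from 7), 3 for KC2 and KC4 (from 8), 1 for KC3 and KC2 (from 2), 3 for KC3 and KC4 (from 6) and 2 for the class (from 5). With a minimum of 2 they fell to 2, 2, 0, 0 and 2 in that order, and to 0 for KC3 and KC1 (from 3). KC3 and KC2 gave 1 call without the dimmer 50% and 5 with no minimum, and the class gave 2 with line as a random block. Ribosome biogenesis genes that set KC3 apart as higher went from 0 to 2 with median centring and 15 with no minimum, and in the class 5 were then higher and 7 lower. With no minimum the growth list gave 7 higher and 2 lower in KC3 and 4 higher and 5 lower in the class, the repressed list 4 higher and 3 lower in KC3 and 5 higher in the class, the wider network 1 higher and 1 lower in KC3, and the regulators 4 higher and 3 lower in KC3 and 6 higher and 4 lower in the class. With a minimum of 2, Ccnd2 and Skp2 no longer set KC3 apart (0 each), and the class counts were 0 higher and 0 lower for growth and 1 higher and 0 lower for repressed genes. With line as a random block the growth and repressed lists gave 0 class calls in either direction. The 1 higher growth gene of the class, Tert, ranged from 0 to 1 over single arrays left out, and was 0 with a floor of 64 or without the dimmer 50%, a filter that left 1 of 2 higher repressed genes. Averaging each gene's probe sets, Skp2 no longer set KC3 apart (0 regulators), and the wider network gave 1 higher gene in the class and 1 lower in KC3. The cause of these changes, beyond stricter or looser limits, was not tested.

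With the replicate number as a block, the member and partner calls were 2, 7 and 8 for KC1 and KC2, KC1 and KC4, and KC2 and KC4, 3, 2 and 7 for KC3 against KC1, KC2 and KC4, and 5 for the class; 5 of 12 arrays correlated best with their own number. Median centring put Myc in KC3 2.07 and Pvt1 (1452324_at) 4.60 above the mean of the other lines.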
